A study of Mus musculus with 60 samples.

Results

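The data described here are the 24 h libraries of a study of mouse liver after partial hepatectomy (PHx), the surgical removal of most of the liver, and they address whether the liver's response to PHx differed with the time of day of the operation. The 12 libraries used are all those of 4 groups at 24 h, of 60 in the series, with 3 mice per group per the labels. All mice were male C57BL/6 of 8 weeks. The morning PHx group had its operation between 8 and 9 am, as did the morning sham group, whose control operation is labelled sham. The night PHx and night sham groups had theirs between 8 and 9 pm. Because all livers were taken 24 h after the operation, morning groups were also collected in the morning and night groups in the evening, so the hour of operation and the hour of collection cannot be told apart. The measure of interest is the difference of the PHx response, that is, PHx minus sham after morning operation, minus PHx minus sham after night operation. It was computed for all 12056 genes present in both deposited 24 h count tables, which held 12669 genes for PHx and 12398 for sham. Either a sham or a PHx change can produce such a difference, so group levels or both changes are given for the genes described in detail. For some genes only the difference is given.

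After PHx, quiescent hepatocytes re-enter the cell cycle: cyclin D and cyclin E with their kinases carry them into DNA replication, and mitosis follows once the block on CDK1 by the kinase WEE1 is lifted. The same cells hold a circadian clock, in which CLOCK (or NPAS2) and ARNTL (also called BMAL1) activate Per, Cry, Nr1d and Dbp genes, and the products of Per and Cry genes repress that activation in turn, while the products NR1D1 and NR1D2 compete with ROR proteins at elements in Arntl and Nfil3. In resting liver the clock and the daily cycle of feeding drive large daily swings in genes of glycogen, lipid and sterol metabolism and of protein folding.

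Each library held 24.3 to 30.2 M counts over the shared genes. Summed markers of hepatocytes (6 of 6 detected in every library) came to 43080 to 85118 CPM, counts scaled to a common library size. Night sham replicate 3 stood apart: the 13 pancreatic acinar markers of the sham table summed to 9144 CPM in it, against 21.9 and 13.2 in night sham replicates 1 and 2, and to 239 in morning sham replicate 3, against 18.9 and 22.0 in morning sham replicates 1 and 2. The PHx table holds 1 of the 14 acinar markers, at 6.0 to 13.6 CPM. Kupffer cell markers, 14 of 14 detected, summed to 649 to 799 CPM in morning PHx and 345 to 458 in morning sham libraries, and to 862 to 1159 in night PHx and 497 to 586 in night sham libraries. The part of these marker levels in any result was not tested, and in bulk tissue fewer cells of a type and less RNA per cell cannot be told apart. Where a call of a gene described below was lost or gained without night sham replicate 3, the value without it is given.

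The response to PHx differed with operation time in 59 genes, or 0.489% of 12056 genes: 25 had a higher (0.207%) and 34 a lower response (0.282%) after morning operation, where called means a Benjamini-Hochberg adjusted p under 0.05 in edgeR's quasi-likelihood F-test. In 57 of the 59 genes the change between morning and night was smaller in PHx than in sham livers. The median size of that change was 0.34 in PHx and 1.72 in sham livers on the log2 scale, against 0.18 in PHx and 0.23 in sham livers over all genes. Since the 59 genes were called on these values, they are a description and no test; over all genes tested the sham change was the larger in 58.3%. In 51 of the 59, or 86.4%, all 3 night sham libraries lay outside the range of the other 9 libraries (20 genes above, 31 below), against 10.6% of all genes.

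**Figure D1:**
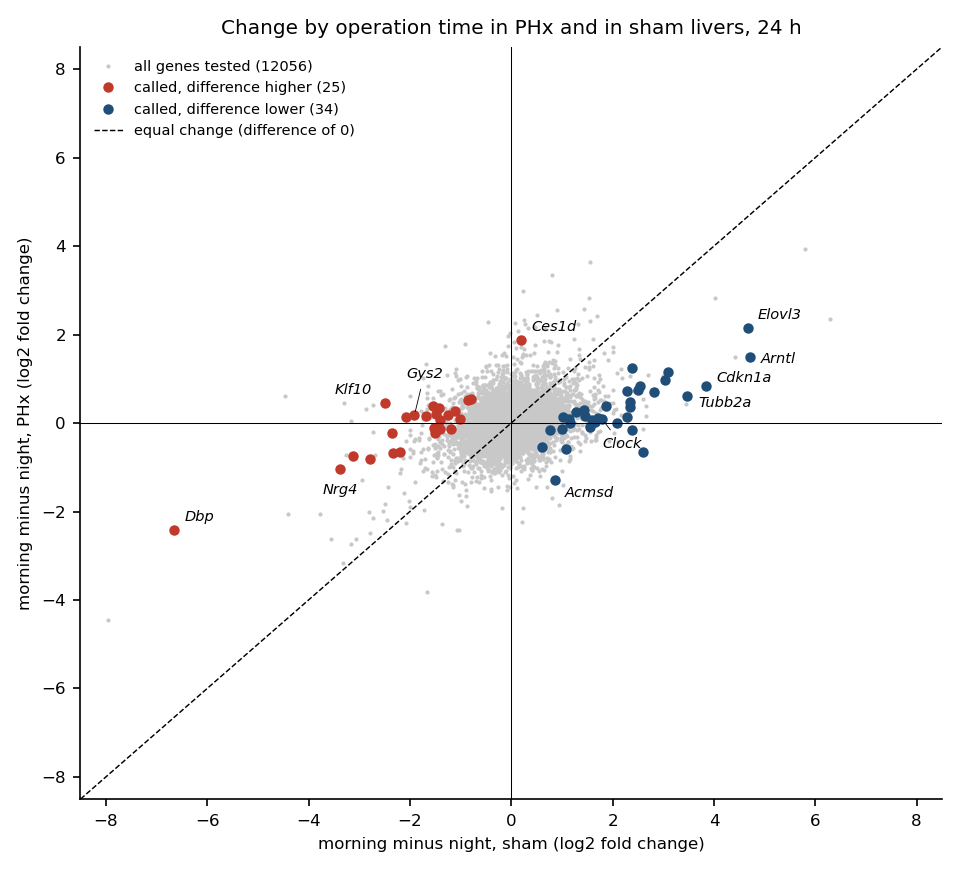
Log2 fold change by operation time (morning minus night) in PHx livers, on the vertical axis, against sham livers, on the horizontal axis, for 12056 genes; red and blue points are the 25 and 34 genes with a called difference, and the dashed line marks equal change. Most called genes lie along the horizontal axis, near 0 for PHx and far from 0 for sham, with Ces1d (1.88 for PHx and 0.19 for sham) among the exceptions.

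Morning and night PHx livers differed in 46 genes (0.382% of genes), of which 30 were higher (0.249%) and 16 lower (0.133%) in the morning. Morning and night sham livers differed in 789 genes (6.54%), of which 400 were higher (3.32%) and 389 lower (3.23%). PHx minus sham was called in 1422 genes after morning operation (11.8%), of which 806 were higher (6.69%) and 616 lower (5.11%). After night operation it was called in 2803 genes (23.2%), of which 1435 were higher (11.9%) and 1368 lower (11.3%). With total counts as the only scaling these splits moved to 1052 higher and 413 lower after morning operation and to 2797 higher and 789 lower after night operation, with the median of all genes at 0.11 and 0.26 in place of 0.00 and 0.01. In the same way the 46 genes for PHx became 28 higher and 23 lower, the 789 for sham 421 higher and 235 lower, and the 59 for the difference 18 higher and 56 lower, around a median of -0.13. Of the 59 genes, 3 were among those called between PHx livers (Elovl3, Clpx and Ces1d, all higher in the morning) and 57 among those called between sham livers. These 4 pairwise comparisons share libraries with the difference and are no independent evidence for it.

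The smallest adjusted p belonged to Gys2, liver glycogen synthase, which makes glycogen from UDP-glucose. Gene levels here are CPM with library sizes scaled by TMM, edgeR's trimmed mean of M values, and compare a gene between libraries, not genes with each other. Gys2 was at 84.1, 84.4 and 72 CPM in the morning PHx libraries and 113, 135 and 126 CPM in the morning sham libraries. Gys2 stood at 65.6, 87 and 61.2 CPM in the night PHx libraries and 464, 452 and 489 CPM in the night sham libraries. The night sham libraries were high and the 3 other groups lay far below them, with PHx livers of both operation times overlapping. The log2 fold change for PHx was -0.63 ± 0.15 after morning and -2.72 ± 0.16 after night operation (errors of log2 values are SE), a difference of 2.08 ± 0.22 (95% interval 1.62 to 2.54, edgeR adjusted p = 0.00111). Of the 16 genes of gluconeogenesis and glycogen tested, Gys2 alone was called for the difference, where 0.489% of all genes were. The list median was 0.27, against 0.01 for all genes. Without night sham replicate 3, the glycogen-targeting subunit gene Ppp1r3c was called too, at -1.32 (adjusted p = 0.0394). With all libraries Ppp1r3c was at -0.96 (adjusted p = 0.29). Igfbp1, an insulin-repressed gene for a growth factor binding protein, was at 70.8, 81.1 and 84.3 CPM in the morning PHx libraries and 27, 26.8 and 43 CPM in the morning sham libraries. Igfbp1 stood at 10.9, 13.1 and 33.6 CPM in the night PHx libraries and 23.1, 45.6 and 29.9 CPM in the night sham libraries. Its 3 morning PHx libraries lay above all others and it was called between morning and night PHx livers (2.03 ± 0.36, adjusted p = 0.0232), but its difference of 2.06 ± 0.50 was not called (adjusted p = 0.0905), although it was with DESeq2 (2.06, adjusted p = 0.00273) and without night PHx replicate 3 (2.74, adjusted p = 0.00629).

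Slc25a47, a mitochondrial carrier made almost only in liver, followed the same course, at 98.5, 78.2 and 73.2 CPM in the morning PHx libraries and 109, 130.2 and 73.8 CPM in the morning sham libraries. Slc25a47 stood at 46.4, 92.6 and 88.4 CPM in the night PHx libraries and 441, 503 and 382 CPM in the night sham libraries. Abcg5 and Abcg8 encode the paired subunits of the transporter that exports cholesterol into bile. Abcg5 was at 21.6, 19.2 and 26.9 CPM in the morning PHx libraries and 15.9, 14.1 and 21.5 CPM in the morning sham libraries. Abcg5 stood at 19.4, 19.8 and 21.5 CPM in the night PHx libraries and 49.4, 50.4 and 64.5 CPM in the night sham libraries. Its partner Abcg8 was at 22.1, 20.3 and 27.9 CPM in the morning PHx libraries and 18.3, 20.1 and 31.6 CPM in the morning sham libraries. Abcg8 stood at 15.3, 20.3 and 19.9 CPM in the night PHx libraries and 60.8, 56.6 and 70.1 CPM in the night sham libraries. In all 3 genes the night sham libraries stood above every other library. The other 3 groups overlapped for Slc25a47 and Abcg5, while for Abcg8 the morning PHx libraries lay just above the night PHx libraries and the morning sham libraries overlapped both. The difference was 2.22 ± 0.36 for Slc25a47, 1.83 ± 0.26 for Abcg5 and 1.76 ± 0.29 for Abcg8 (adjusted p = 0.0147, 0.00697 and 0.0149). The bile acid transport list also holds these 2 cholesterol exporter genes. They were the only called members of its 10 genes tested (median 0.62), where 0.489% of all genes were called. The other 8 members were not called. They ranged from -0.39 for the bile salt export pump Abcb11 to 1.11 for the bile acid uptake carrier Slc10a1 (adjusted p = 0.678 and 0.182).

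Tob2, of the antiproliferative Tob/BTG family, averaged 18.9 ± 2.02 CPM after morning PHx and 16 ± 2.38 CPM after morning sham operation. Tob2 stood at 16.4 ± 1.10 CPM after night PHx and 44.8 ± 2.45 CPM after night sham operation (SD, n = 3 each). The Tob2 difference was 1.69 ± 0.21 (adjusted p = 0.00462). Gch1, the first enzyme of tetrahydrobiopterin synthesis, averaged 54 ± 5.26 CPM after morning PHx and 45.3 ± 0.376 CPM after morning sham operation. Gch1 stood at 47.6 ± 6.68 CPM after night PHx and 107 ± 1.22 CPM after night sham operation. The Gch1 difference was 1.43 ± 0.18 (adjusted p = 0.00512). For Tob2 and Gch1 the PHx livers of both operation times and the morning sham livers lay close together and the night sham livers stood above them. Ulk1, the kinase that starts autophagy, averaged 21.3 ± 3.81 CPM after morning PHx and 25.2 ± 3.85 CPM after morning sham operation. Ulk1 stood at 20.3 ± 5.07 CPM after night PHx and 66.6 ± 11.6 CPM after night sham operation. The Ulk1 difference was 1.48 ± 0.29 (adjusted p = 0.0341), lost with total counts as the scaling (adjusted p = 0.0561). With 1 library left out it kept its call without morning PHx replicate 3, night PHx replicate 2 or night sham replicate 3, and in no other case. Gpcpd1, which breaks down glycerophosphocholine, was at 25.3, 24.6 and 26.2 CPM in the morning PHx libraries and 25.8, 17 and 29.2 CPM in the morning sham libraries. Gpcpd1 stood at 38.4, 62.8 and 26 CPM in the night PHx libraries and 309, 156 and 166 CPM in the night sham libraries. Night sham libraries stood above the other 9. Its difference was 2.39 ± 0.43 (adjusted p = 0.0207), and it was lost without any 1 of 7 libraries (all but morning sham replicate 3, night PHx replicates 2 and 3 and night sham replicates 2 and 3). Coq10b, a coenzyme Q-binding mitochondrial protein, was at 14.2, 11.8 and 14.7 CPM in the morning PHx libraries and 8.98, 9.05 and 10.7 CPM in the morning sham libraries. Coq10b stood at 24.6, 27 and 13.7 CPM in the night PHx libraries and 42.5, 42.8 and 60.5 CPM in the night sham libraries. The sham groups were the extremes, lowest in the morning and highest at night. The Coq10b difference was 1.66 ± 0.32 (adjusted p = 0.0321), kept without morning sham replicate 3, night PHx replicate 2 or 3 or night sham replicate 3 and lost without any 1 of the other 8; 12.8% of its exonic bases overlap a transcript on the opposite strand.

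Ces1d was an exception, one of 2 called genes with a larger change by operation time in PHx than in sham livers. Ces1d encodes a carboxylesterase that hydrolyses triglyceride, and close relatives lie beside it in the genome, so the share of reads among these copies is uncertain. It was at 149.8, 239 and 218 CPM in the morning PHx libraries and 438, 486 and 512 CPM in the morning sham libraries. Ces1d stood at 48.5, 66.6 and 49.2 CPM in the night PHx libraries and 349.8, 403 and 503 CPM in the night sham libraries. The morning and night sham libraries overlapped, PHx livers were lower than sham at both times, and the night PHx libraries were the lowest of all. PHx minus sham was -1.24 ± 0.20 after morning and -2.93 ± 0.21 after night operation, a difference of 1.69 ± 0.28 (adjusted p = 0.0149). The other was Acmsd, which diverts tryptophan breakdown away from NAD synthesis, at 47.2, 38.5 and 61.4 CPM in the morning PHx libraries and 42, 53.1 and 45.2 CPM in the morning sham libraries. Acmsd stood at 182, 95.8 and 82.7 CPM in the night PHx libraries and 32.9, 29.1 and 15.4 CPM in the night sham libraries. For Acmsd night PHx libraries were the highest and night sham libraries the lowest. Its difference was -2.15 ± 0.42 (adjusted p = 0.0366), lost without any 1 of 8 libraries and kept without morning PHx replicate 3, night PHx replicate 2 or 3 or night sham replicate 3.

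Among the 34 genes with a lower difference, Cdkn1a, which encodes the cyclin-dependent kinase inhibitor p21, had the smallest adjusted p. It was at 36.7, 23.1 and 25.8 CPM in the morning PHx libraries and 8.35, 12.2 and 6.17 CPM in the morning sham libraries. Cdkn1a stood at 12.9, 15.7 and 19.1 CPM in the night PHx libraries and 0.602, 0.718 and 0.529 CPM in the night sham libraries. All 3 night sham libraries were below 1 CPM, far under any other library, while PHx livers were the highest at both times and morning PHx lay above night PHx without overlap. PHx minus sham was 1.68 ± 0.25 after morning and 4.67 ± 0.32 after night operation, both called, a difference of -2.99 ± 0.40 (95% interval -3.85 to -2.14, adjusted p = 0.00645). Its exons share 10% of their bases with an unclassified transcript on the other strand, and the strand setting of the counting is not given in the sources used here. Of the other 12 p53 target genes tested none was called for the difference (list median -0.03), where 0.489% of all genes were.

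Tubb2a, a beta tubulin with near-identical family members among which reads may be split, was at 189, 144 and 144 CPM in the morning PHx libraries and 90.7, 100.4 and 79.6 CPM in the morning sham libraries. Tubb2a stood at 85.5, 64.4 and 164 CPM in the night PHx libraries and 12.6, 6.11 and 5.43 CPM in the night sham libraries. Its night sham libraries were again far below the rest, and the difference was -2.88 ± 0.46 (adjusted p = 0.0147). Elovl3, an elongase of very long fatty acids that is higher in male liver, was higher in the morning in both PHx and sham livers. Elovl3 was at 120.1, 122 and 56 CPM in the morning PHx libraries and 347, 452 and 361 CPM in the morning sham libraries. Elovl3 stood at 17.1, 32.1 and 17.7 CPM in the night PHx libraries and 17.8, 13.1 and 14.9 CPM in the night sham libraries. PHx lowered it after morning operation (-1.96 ± 0.29, adjusted p = 5.34e-04) and gave 0.54 ± 0.29 after night operation (adjusted p = 0.198), a difference of -2.50 ± 0.41 (adjusted p = 0.0149). Elovl3 was the only called gene of 19 growth hormone and male-biased genes tested (median -0.13), where 0.489% of all genes were called.

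**Figure D2:**
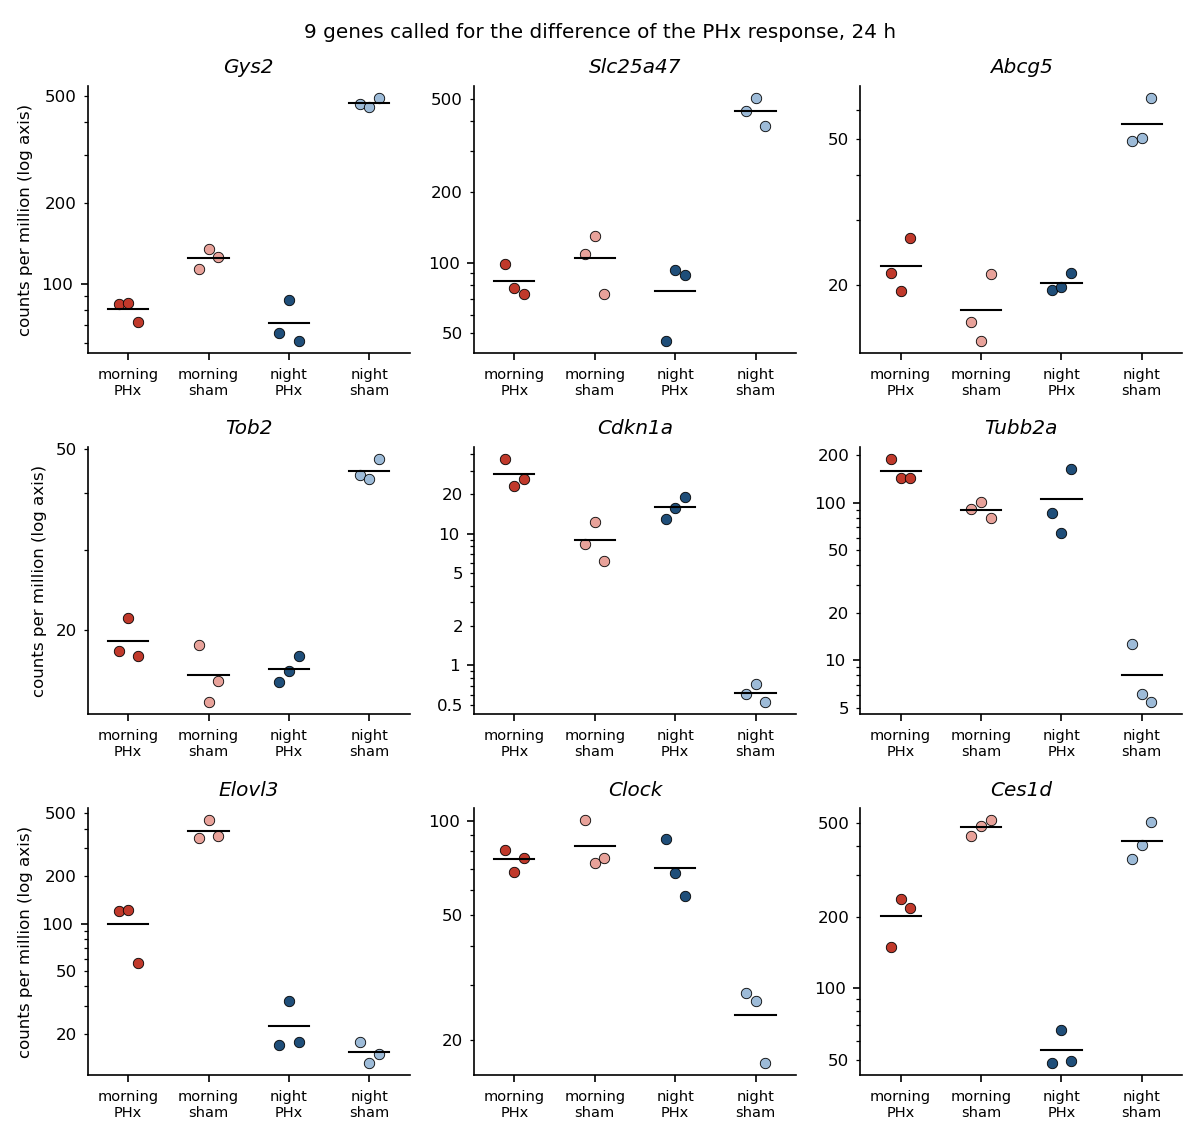
CPM (log axis, a separate scale per gene) of 9 called genes in each library of the 4 groups; points are libraries and lines group means. The 3 night sham libraries lie outside all others for Gys2, Slc25a47, Abcg5, Tob2, Cdkn1a, Tubb2a and Clock, whereas the morning sham libraries are highest for Elovl3 and the night PHx libraries lowest for Ces1d.

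The tight junction genes Cldn1 and Tjp3 were both lowest in night sham livers. Cldn1 averaged 61.5 ± 7.77 CPM after morning PHx and 91.3 ± 8.69 CPM after morning sham operation. Cldn1 stood at 47.8 ± 16.1 CPM after night PHx and 17.9 ± 4.68 CPM after night sham operation. The Cldn1 difference was -1.99 ± 0.32 (adjusted p = 0.0147). Tjp3 averaged 29.5 ± 6.43 CPM after morning PHx and 45.3 ± 7.54 CPM after morning sham operation. Tjp3 stood at 17.9 ± 2.71 CPM after night PHx and 9.30 ± 0.563 CPM after night sham operation. The Tjp3 difference was -1.56 ± 0.26 (adjusted p = 0.0149). Chka, the choline kinase that opens phosphatidylcholine synthesis, averaged 55.7 ± 3.97 CPM after morning PHx and 69.4 ± 18.4 CPM after morning sham operation. Chka stood at 25.1 ± 8.20 CPM after night PHx and 8.18 ± 2.76 CPM after night sham operation. The Chka difference was -1.94 ± 0.36 (adjusted p = 0.0244) and was lost without any 1 of morning PHx replicates 1 to 3, morning sham replicate 2 and night sham replicates 1 and 2. St5 averaged 59.5 ± 6.58 CPM after morning PHx and 70.6 ± 13.5 CPM after morning sham operation. St5 stood at 35.6 ± 10.8 CPM after night PHx and 12.4 ± 2.52 CPM after night sham operation. The St5 difference was -1.76 ± 0.30 (adjusted p = 0.016), lost without morning PHx replicate 1 or 2 or night sham replicate 1. In Cldn1, Tjp3, Chka and St5 the night sham livers were the lowest group. No gene among the 4 was called between morning and night PHx livers, where 0.382% of all genes were. Their morning minus night changes in PHx livers were 0.36 ± 0.22, 0.73 ± 0.18, 1.15 ± 0.25 and 0.74 ± 0.21, in that order. The edgeR adjusted p were 0.676, 0.13, 0.0722 and 0.201.

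Of the other called genes, chosen for description after their values were seen, Klf10, a zinc-finger transcription factor induced by TGF-beta, was at 6.55, 7.01 and 7.48 CPM in the morning PHx libraries and 3.13, 6.74 and 5.69 CPM in the morning sham libraries. Klf10 stood at 4.30, 5.65 and 5.33 CPM in the night PHx libraries and 37.6, 36.8 and 12.8 CPM in the night sham libraries. Night sham libraries were the highest and ranged widely. The Klf10 difference was 2.95 ± 0.49 (adjusted p = 0.0149), lost without night sham replicate 1. Nrg4, a secreted ligand of the epidermal growth factor family, was at 7.04, 4.73 and 6.02 CPM in the morning PHx libraries and 2.65, 2.75 and 1.59 CPM in the morning sham libraries. Nrg4 stood at 8.72, 17.1 and 11 CPM in the night PHx libraries and 31.5, 21.2 and 20.3 CPM in the night sham libraries. PHx raised Nrg4 after morning operation (1.35 ± 0.30) and lowered it after night operation (-0.99 ± 0.27), with both called, a difference of 2.34 ± 0.40 (adjusted p = 0.018) that was lost without morning PHx replicate 1 or night sham replicate 1; 7.52% of its exonic bases overlap Fbxo22 on the opposite strand. Tfrc, the transferrin receptor of iron uptake, was at 46, 41.5 and 47.6 CPM in the morning PHx libraries and 32.6, 45.6 and 36.8 CPM in the morning sham libraries. Tfrc stood at 58.1, 69.8 and 68 CPM in the night PHx libraries and 23.9, 26.2 and 25.9 CPM in the night sham libraries. Its night PHx libraries were the highest and its night sham libraries the lowest. The Tfrc difference was -1.13 ± 0.20 (adjusted p = 0.0201), lost without morning PHx replicate 1 or 2, morning sham replicate 2 or night sham replicate 1. Kpnb1, the importin beta that carries proteins into the nucleus, and Clpx, the chaperone subunit of a mitochondrial protease, had differences of -0.93 ± 0.19 and -1.13 ± 0.23 (adjusted p = 0.0487 and 0.0497). The calls of Kpnb1 and Clpx were lost in 10 and 11 of the 12 fits with a library left out, night sham replicate 3 included (-0.85 and -1.05 without it, adjusted p = 0.0534 and 0.0534). Exons on the opposite strand cover at least 5% of the exonic bases of 9 of the 59 genes, among them Eps8l2 with 40.9% and Klhl21 with 20.5%. The Eps8l2 difference was -1.47 ± 0.30 (adjusted p = 0.0475), and -1.43 without night sham replicate 3 (adjusted p = 0.0534).

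Of 20 clock genes tested, 4 were called for the difference, against 0.489% of all genes. Dbp was called higher, and Arntl, Nfil3 and Clock lower (median of the list 0.38). Between PHx livers 2 clock genes were called higher and 8 lower in the morning (0.382% of all genes called), and between sham livers 5 higher and 12 lower (6.54% of all genes). Arntl, the core activator, was at 18.1, 23.4 and 27.7 CPM in the morning PHx libraries and 32.2, 28.1 and 29.5 CPM in the morning sham libraries. Arntl stood at 13.1, 3.13 and 8.09 CPM in the night PHx libraries and 1.84, 0.838 and 0.673 CPM in the night sham libraries. Its night sham libraries were lowest and its night PHx libraries lay between them and the morning libraries. PHx minus sham was -0.37 ± 0.37 after morning operation (adjusted p = 0.591) and 2.83 ± 0.45 after night operation (adjusted p = 4.50e-04), a difference of -3.21 ± 0.58 (adjusted p = 0.0207). Clock, its partner, was at 80.9, 68.8 and 76.3 CPM in the morning PHx libraries and 100.4, 73.4 and 75.9 CPM in the morning sham libraries. Clock stood at 87.2, 68.2 and 57.4 CPM in the night PHx libraries and 28.3, 26.7 and 17 CPM in the night sham libraries. The night sham libraries lay below the other 9, which overlapped. The Clock difference was -1.70 ± 0.28 (adjusted p = 0.0149), and its call was lost without morning PHx replicate 2 (adjusted p = 0.0519).

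Dbp, an activator of genes with D-box elements, was at 0.805, 0.418 and 0.935 CPM in the morning PHx libraries and 0.139, 0.199 and 0.998 CPM in the morning sham libraries. Dbp stood at 2.37, 6.64 and 2.44 CPM in the night PHx libraries and 41.9, 44.4 and 49.9 CPM in the night sham libraries. The 6 morning libraries lay below every night library, night sham libraries were the highest and night PHx libraries lay between. PHx minus sham was 0.67 ± 0.63 after morning operation (adjusted p = 0.569), a value from 6 libraries that were all below 1 CPM. It was -3.58 ± 0.46 after night operation (adjusted p = 9.48e-05), and the difference was 4.25 ± 0.77 (adjusted p = 0.0203). Of the exonic bases of Dbp, 29.3% overlap Sphk2 on the opposite strand. Nfil3, a repressor at the same D-box elements, had the reverse order of groups, at 26.5, 25.6 and 29.3 CPM in the morning PHx libraries and 48.8, 38.6 and 36.9 CPM in the morning sham libraries. Nfil3 stood at 20.3, 11.7 and 13.6 CPM in the night PHx libraries and 5.30, 7.03 and 9.04 CPM in the night sham libraries. Its difference was -1.71 ± 0.31 (adjusted p = 0.0209). The call of Arntl was lost without morning PHx replicate 1 or 2, morning sham replicate 1 or 2 or night sham replicate 2, that of Dbp without morning PHx replicate 1 or 3, morning sham replicate 1 or 2 or night sham replicate 1 or 2, and that of Nfil3 without morning PHx replicate 1 or 2, morning sham replicate 1 or 2 or night sham replicate 1 or 2.

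**Figure D3:**
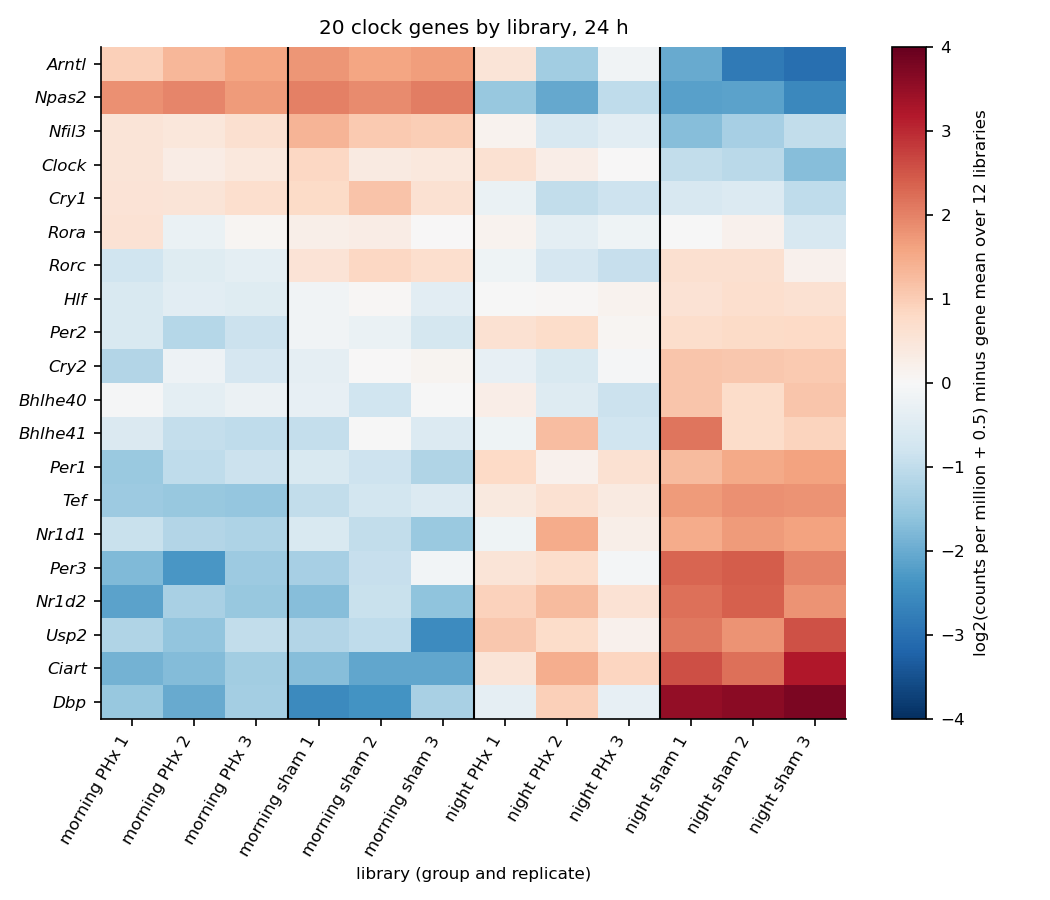
Log2(CPM + 0.5) of the 20 clock genes in each of the 12 libraries, as the difference from the gene's mean over the libraries, with genes sorted by the night minus morning difference in sham. Night sham libraries have the strongest colours in both directions (Arntl low, Dbp high), and night PHx libraries are paler, between night sham and morning libraries, for Arntl, Nfil3, Per1, Per3, Tef, Nr1d2 and Dbp.

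The other clock genes chosen for description were not called for the difference. Npas2, a paralog of Clock, averaged 12.4 ± 1.17 CPM after morning PHx and 13.8 ± 0.767 CPM after morning sham operation. Npas2 stood at 0.795 ± 0.447 CPM after night PHx and 0.239 ± 0.124 CPM after night sham operation. Its difference of -1.85 ± 0.54 was not called (adjusted p = 0.178), but it was called with DESeq2 (-1.86, adjusted p = 0.0345) and without night PHx replicate 2 (-2.17, adjusted p = 0.0355). The repressors Per1, Per2 and Per3 were lower in the morning in PHx (-1.83, -1.40 and -2.72) and in sham livers (-2.50, -1.14 and -3.16), all 6 called, with differences of 0.66, -0.26 and 0.44. Cry1 was higher in the morning in both (1.28 in PHx and 1.61 in sham livers), with a difference of -0.33. Cry2 was at -0.33 in PHx livers (adjusted p = 0.733) and was lower in the morning in sham livers (-1.17, adjusted p = 0.00701), with a difference of 0.84. The repressors Nr1d1 and Nr1d2 were lower in the morning in PHx (-2.02 and -2.63) and in sham livers (-2.82 and -3.57), all called, with differences of 0.80 and 0.94. The 95% intervals of these 7 differences were -0.10 to 1.43 for Per1, -0.89 to 0.36 for Per2, -0.69 to 1.57 for Per3, -0.95 to 0.28 for Cry1, 0.14 to 1.54 for Cry2, -0.37 to 1.96 for Nr1d1 and 0.14 to 1.74 for Nr1d2.

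Promoter letters were read for 16 of the 25 genes called higher and 24 of the 34 called lower that have a RefSeq window, which runs from 250 bases before to 50 bases after the transcription start (GRCm38.p6, first listed start). The pattern TNGGTCA, where N is any base, was sought on either strand as a loose form of the core bound by ROR and NR1D proteins. It was present in 5 of the 24 windows of genes called lower (20.8%) and 1 of the 16 of genes called higher (6.25%). Of all genes tested, 921 of 9205 windows held it. Because N admits any base, a match need not be an element of those proteins, and the pattern is wider than that element. The stretches of 50 bases that hold it in the clock genes Arntl and Nfil3 are shown, since both were called lower, 5′ to 3′ on the gene's strand, with the matches in capitals: Arntl has 2, at 220 to 171 bases before its start (chr7:113207245-113207294, plus strand), and Nfil3 has 1 on the opposite strand, in the 50 bases before its start (chr13:52981040-52981089, minus strand).
Arntl: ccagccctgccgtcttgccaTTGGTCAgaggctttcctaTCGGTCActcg
Nfil3: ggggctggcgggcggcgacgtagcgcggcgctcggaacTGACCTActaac
The other 3 windows were those of Tfrc and Tjp3, with the match before the start, and of Eps8l2, with the match after it. The E-box CACGTG was in 2 of 16 windows of genes called higher (12.5%), 1 of 24 called lower (4.17%) and 10.4% of all. The D-box core TTATGTA was in 1 of 16 (6.25%), 0 of 24 and 1.37%, the cell cycle homology region TTTGAA in 1 of 16, 2 of 24 and 1109 of 9205, and CCAAT in 7 of 16, 12 of 24 and 3585 of 9205. These counts are for genes called higher, called lower and all genes, with each motif sought on either strand. These matches describe letters in a window and were not tested.

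Cell cycle genes rose after PHx at both operation times. In counts of genes here and below, rose and fell mean called higher and called lower in PHx minus sham. Of 36 genes of G1/S and DNA replication tested, 31 rose and 1 fell after morning operation and 30 rose and 1 fell after night operation (medians 2.15 and 2.37), and of 23 of G2/M and mitosis 23 rose after morning and 18 after night operation (medians 3.19 and 1.96). Of all genes 6.69% rose and 5.11% fell after morning operation, and 11.9% rose and 11.3% fell after night operation. Ccnd1, cyclin D1, averaged 77.3 ± 22.1 CPM after morning PHx and 9.39 ± 1.51 CPM after morning sham operation. Ccnd1 stood at 57.3 ± 23.6 CPM after night PHx and 9.25 ± 1.68 CPM after night sham operation. The Ccnd1 difference was 0.41 ± 0.40 (adjusted p = 0.818). Mki67, which marks cycling cells, was at 106, 151 and 195 CPM in the morning PHx libraries and 7.10, 6.06 and 21 CPM in the morning sham libraries. Mki67 stood at 26, 84 and 14.3 CPM in the night PHx libraries and 7.15, 8.30 and 4.81 CPM in the night sham libraries. The morning PHx libraries lay above all others and the night PHx libraries ranged widely; the difference of 1.11 ± 0.77 was not called (adjusted p = 0.695, 95% interval -0.54 to 2.77). Cenpf, a kinetochore protein and the 1 mitosis gene called between PHx livers, was at 25.7, 27.5 and 30.7 CPM in the morning PHx libraries and 1.74, 1.55 and 3.66 CPM in the morning sham libraries. Cenpf stood at 4.61, 7.56 and 3.40 CPM in the night PHx libraries and 1.13, 2.08 and 1.73 CPM in the night sham libraries. It was 2.43 ± 0.34 higher in morning than in night PHx livers (adjusted p = 0.00276), with a difference of 1.93 ± 0.49 (adjusted p = 0.105). The median difference was 1.11 over the mitosis list and -0.13 over the G1/S list, against 0.01 for all genes. For the difference 1 member of each list was called, where 0.489% of all genes were.

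Ccne1 and Wee1 were those members. Ccne1, cyclin E1, was at 13.1, 14.1 and 20.1 CPM in the morning PHx libraries and 1.18, 1.12 and 1.55 CPM in the morning sham libraries. Ccne1 stood at 14.8, 25.2 and 15.1 CPM in the night PHx libraries and 5.30, 8.38 and 5.96 CPM in the night sham libraries. PHx livers overlapped between operation times and sham livers did not, with morning sham libraries lower than night sham libraries. PHx minus sham was 3.61 ± 0.30 after morning and 1.49 ± 0.26 after night operation, both called, a difference of 2.13 ± 0.38 (adjusted p = 0.0203). The call was lost without morning PHx replicate 3, morning sham replicate 1 or 2, night PHx replicate 1 or night sham replicate 2. Wee1, the kinase that holds cells before mitosis and a known clock target in mouse liver, was at 4.76, 8.59 and 10.6 CPM in the morning PHx libraries and 3.58, 2.83 and 2.77 CPM in the morning sham libraries. Wee1 stood at 16.2, 13.9 and 12.1 CPM in the night PHx libraries and 24, 24.7 and 14.6 CPM in the night sham libraries. Night libraries were higher than morning libraries with and without PHx. PHx raised Wee1 after morning operation (1.38 ± 0.29, adjusted p = 0.00589) and gave -0.59 ± 0.27 after night operation (adjusted p = 0.131), a difference of 1.97 ± 0.39 (adjusted p = 0.04). That call held without morning PHx replicate 1, night PHx replicate 2 or night sham replicate 3, and it was lost without any 1 of the other 9 libraries and with total counts as the scaling (adjusted p = 0.0599). Without night sham replicate 3, Cenpa, a centromeric histone, was called as well (1.73, adjusted p = 0.0368; 1.61 and 0.061 with all libraries).

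**Figure D4:**
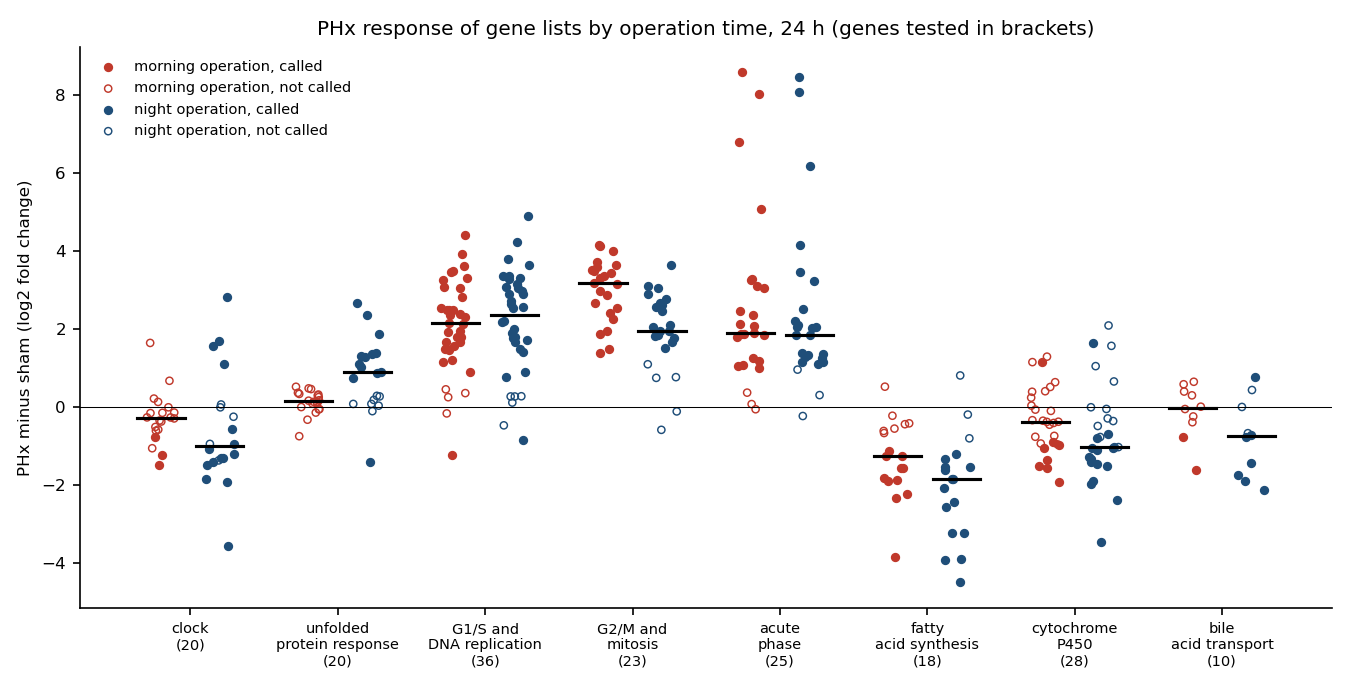
PHx minus sham log2 fold change of each tested gene in 8 lists, after morning (red, left) and night operation (blue, right); filled points are called, open points are not, and bars are medians. Replication and acute phase genes rise at both times, and the mitosis median is 3.19 after morning and 1.96 after night operation. Of 20 protein-folding genes, none is called higher after morning operation and 12 are after night operation, against 6.69% and 11.9% of all genes. Only Sdf2l1 in that list is called for the difference itself with all libraries.

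Genes of the unfolded protein response, chaperones and enzymes of the endoplasmic reticulum, were called higher in PHx than in sham livers in none of 20 after morning operation (median 0.15; 5 at an unadjusted p under 0.05, 1 called higher by DESeq2) and in 12 of 20 after night operation (1 lower, median 0.88), against 6.69% and 11.9% of all genes. Between PHx livers none of 20 was called (2 at an unadjusted p under 0.05, none by DESeq2), where 0.382% of all genes were called. Between sham livers 14 of 20 were called higher in the morning, against 3.32% of all genes. Sdf2l1, part of a chaperone complex, was at 51, 74.3 and 55.5 CPM in the morning PHx libraries and 62.1, 64 and 39 CPM in the morning sham libraries. Sdf2l1 stood at 59.8, 55 and 87.2 CPM in the night PHx libraries and 6.28, 9.18 and 16.5 CPM in the night sham libraries. Its difference was -2.53 ± 0.42 (adjusted p = 0.0149), lost without morning PHx replicate 1 or night sham replicate 2. It was the 1 called member of the list with all libraries (median difference -0.58), where 0.489% of all genes were called. Without night sham replicate 3, 7 of 20 were called lower: Sdf2l1 (-3.0), Creld2 (-2.70), Manf (-1.92), Pdia4 (-1.37), Hyou1 (-1.36), Dnajb11 (-1.21) and Calr (-1.08). With total counts as the scaling 5 were, and with DESeq2 7 were. Over all 12056 genes 34 were called lower in the main fit and 63 without night sham replicate 3. With total counts 56 were, and with DESeq2 129 were. Manf, a secreted folding factor, was at 406, 360.5 and 287 CPM in the morning PHx libraries and 343, 297 and 196 CPM in the morning sham libraries. Manf stood at 232, 241 and 374 CPM in the night PHx libraries and 60.7, 58.8 and 112 CPM in the night sham libraries. Night sham replicate 3, the library with acinar markers at 9144 CPM, was the highest of its group for Sdf2l1 and Manf; the part of those markers in these values was not tested.

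Fatty acid synthesis genes fell after PHx in 11 of 18 after morning operation (median -1.27) and in 15 of 18 after night operation (median -1.86), and none rose. Of all genes 5.11% fell after morning and 11.3% after night operation. None of 18 was called for the difference by edgeR with all libraries, where 0.489% of all genes were (median 0.86). At an unadjusted p under 0.05 there were 7. DESeq2 called 1 of the 18, and 236 of all 12056 genes. Calls in this list were gained without night sham replicate 3, the library with acinar markers, where calls over all genes rose from 59 to 108. Without night PHx replicate 2 they rose to 130. Calls in this list were not counted for any other single library left out, and the part of acinar markers was not tested. Fasn, fatty acid synthase, was at 53.5, 41.5 and 56 CPM in the morning PHx libraries and 204, 124 and 122 CPM in the morning sham libraries. Fasn stood at 20.7, 38.2 and 21.7 CPM in the night PHx libraries and 423, 244 and 93 CPM in the night sham libraries. Its difference was 1.66 ± 0.56 with all libraries (adjusted p = 0.267) and 2.04 without night sham replicate 3 (adjusted p = 0.0324). In the latter fit Pklr (2.44), Elovl6 (2.27) and Acaca (1.52) were called too. Srebf1, a transcription factor of lipid synthesis, was at 44.4, 45.9 and 103 CPM in the morning PHx libraries and 86.3, 84.8 and 91.1 CPM in the morning sham libraries. Srebf1 stood at 30.7, 73.7 and 7.79 CPM in the night PHx libraries and 141, 87.1 and 117 CPM in the night sham libraries. Its difference was 1.18 ± 0.73 (adjusted p = 0.651). Insig2, which retains SREBP proteins in the endoplasmic reticulum, lay just outside the threshold, at -1.49 ± 0.31 (adjusted p = 0.0508), as did the nuclear envelope gene Sun2 (1.40 ± 0.29, adjusted p = 0.0508).

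Just inside the threshold were Por and Rtn4rl1. Por encodes the reductase that feeds electrons to cytochromes P450 and was at 301, 184 and 268 CPM in the morning PHx libraries and 111, 91.7 and 134 CPM in the morning sham libraries. Por stood at 472, 412 and 307 CPM in the night PHx libraries and 603, 399.6 and 529 CPM in the night sham libraries. Morning sham libraries were the lowest, and PHx raised Por after morning operation (1.16 ± 0.23, adjusted p = 0.00377) and gave -0.36 ± 0.22 after night operation (adjusted p = 0.271). The difference of 1.53 ± 0.32 (adjusted p = 0.0497) was lost without night sham replicate 3 (1.49, adjusted p = 0.0546) or without any 1 of morning PHx replicates 1 and 3, morning sham replicates 1 and 2, night PHx replicates 1 and 3 and night sham replicate 1. It was lost with RLE size factors as well (adjusted p = 0.0521). Por was the only gene of 28 in the P450 list called for the difference (median 0.43), where 0.489% of all genes were. In that list 7 fell and 1 rose after morning PHx and 16 fell and 1 rose after night PHx. Of all genes 5.11% fell and 6.69% rose after morning PHx, and 11.3% fell and 11.9% rose after night PHx. Rtn4rl1 was at -2.08 ± 0.43 (adjusted p = 0.0497) and was called in 2 of the 12 fits with a library left out, those without night PHx replicate 2 and night sham replicate 3.

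In several further lists edgeR called no member for the difference. Of all genes 0.489% were called and 1240 of 12056 had an unadjusted p under 0.05, so at that share lists of 11 to 25 genes would mostly hold no call. Acute phase genes rose in 22 of 25 at both operation times (medians 1.91 and 1.85), against 6.69% of all genes after morning and 11.9% after night operation. Lcn2, Saa1 and Saa2 had differences of -0.44 ± 0.64, 0.62 ± 0.63 and 0.50 ± 0.45. Genes of ribosome biogenesis rose in 5 of 24 after morning and 10 of 24 after night operation, genes of the urea cycle and amino acid breakdown fell in 6 of 21 and 9 of 21, cholesterol synthesis genes in 6 of 23 and 5 of 23, and bile acid synthesis genes in 6 of 12 and 5 of 12. Of all genes 5.11% fell after morning and 11.3% after night operation. After night operation 1 gene of bile acid synthesis and 2 of urea cycle and amino acid breakdown rose. None of these 4 lists, of the lists of immediate early (11 tested), heat shock (14), metallothionein and oxidative stress (11), fatty acid oxidation (23), hepatocyte identity (24) and zonation genes (17), or of the marker lists of other cell types held a gene called for the difference. No neutrophil marker was in the sham table and no lymphocyte marker was in the PHx table, so neither set could be called. At most 1 of the 14 acinar markers could be. At an unadjusted p under 0.05 these lists other than the marker lists held 0 (ribosome biogenesis) to 3 genes (acute phase, immediate early and heat shock). DESeq2 called 236 of all 12056 genes. In these lists it called 1 gene each of the acute phase, heat shock, hepatocyte identity and zonation lists and 2 immediate early genes. Apart from the marker lists, their median differences ran from -0.10 for ribosome biogenesis to 0.49 for immediate early genes. With total counts as the scaling, against a median of -0.13 over all genes, those of acute phase, metallothionein, cholesterol synthesis and urea cycle genes turned to -0.04, -0.03, -0.10 and -0.04. Of single genes named whatever their p, Myc (-0.63 ± 0.57), Cyp7a1 (-0.52 ± 0.86), Pck1 (0.62 ± 0.37), Hspa1b (0.83 ± 0.73), Ppara (0.21 ± 0.30) and Alb (0.19 ± 0.36) were not called; Foxm1 and Mt2 were not in both tables. The 95% interval of Cyp7a1, which controls the rate at which bile acids are made, ran from -2.35 to 1.31. Without night sham replicate 3, the immediate early gene Dusp1 (2.27, adjusted p = 0.0474) and the chaperone gene Hsp90aa1 (-1.62, adjusted p = 0.0261) were called.

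Which genes were called depended on single libraries. With 1 library left out at a time, 26 to 130 genes were called. The count fell to 26 without morning PHx replicate 1 or night sham replicate 1, 29 without morning PHx replicate 2, 30 without morning sham replicate 2, 34 without morning sham replicate 1 and 36 without night sham replicate 2. It was 130 without night PHx replicate 2 and 108 without night sham replicate 3, and in that fit 55 of the 59 kept their call. Of the 59, 20 kept their call in all 12 of these fits, among them Abcg5, Abcg8, Ces1d, Dhrs7, Gch1, Gys2, Slc25a47, Tbc1d30, Tnks1bp1 and Tob2 with a higher difference, and Abtb2, Arhgef19, Cdkn1a, Cldn1, Elovl3, Lgalsl, Pnkd, Tjp3 and Tubb2a with a lower one. No called gene changed direction in any of the 12.

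**Figure D5:**
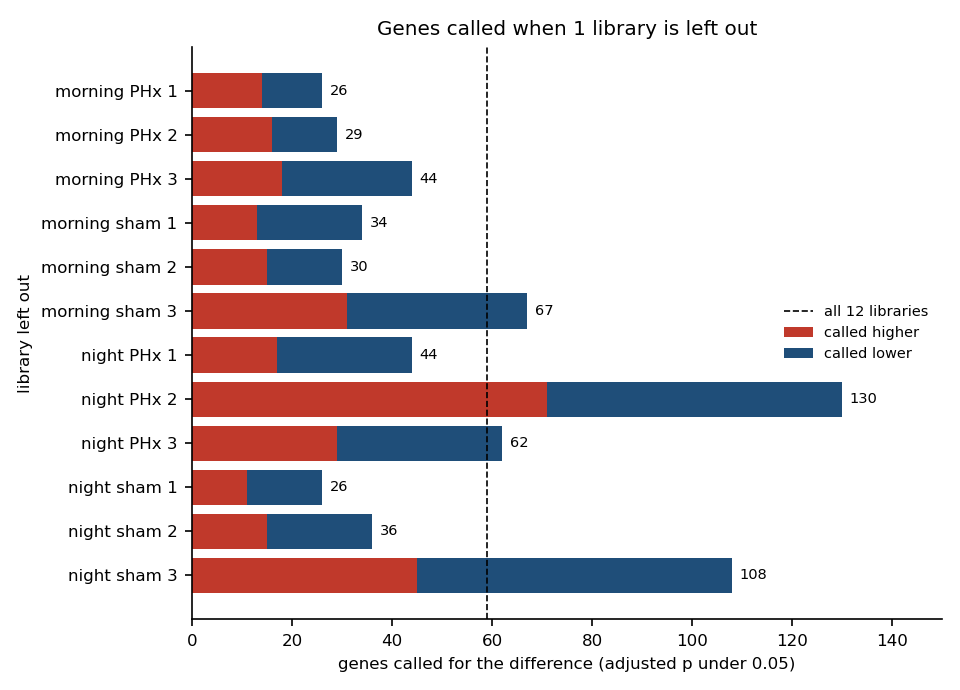
Number of genes called for the difference when the library on the vertical axis is left out, split into higher (red) and lower (blue); the dashed line is the count of 59 with all 12 libraries. The count ranges from 26 to 130, highest without night PHx replicate 2.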

How the data were processed

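RNA-seq of liver was deposited as raw counts per gene by the authors, 1 table for PHx and 1 for sham at 24 h. HISAT2 2.1.0, fastp 0.20.0 and the builds mm8 and mm9 appear in the submitters' processing notes, with no role given; the counter, its annotation and strand are not given in the sources used. Columns were assigned to samples by name; 4 columns matched no labelled sample and were not used. Tables were joined on gene ID, and 518 genes took their symbol from the reference. The 12 libraries were fitted together, with 1 coefficient per group, in edgeR 4.0.16 (R 4.3.3) after TMM scaling and filterByExpr, by glmQLFit and glmQLFTest, with Benjamini-Hochberg adjustment over all genes. SE is the log2 fold change divided by the square root of F. The script was tested on simulated data. Depth was 24.31 to 30.15 M counts. Intervals give the uncertainty of an estimated difference, from 1 estimate of spread per gene shared by the 4 groups of 3 mice. Alternatives were DESeq2 1.42.0, RLE size factors, total counts, other filters, a replicate block, a term for the run of library numbers, and each library left out.

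Genes named are called genes at or above median expression with the 10 largest positive and the 10 largest negative differences, up to 3 called members of each list, 12 clock genes and 18 single genes whatever their p, and 2 genes on each side of the threshold; others were chosen after their values were seen. The values of 2 called genes are not reported here. The comparison, genes and lists were chosen with earlier results of these data known. Promoters are RefSeq windows (GRCm38.p6), and exon overlaps come from the GENCODE basic annotation of GRCm38. The builds differ from those in the notes, so no coordinate of the files was used.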

Additional observations from a re-analysis of the deposited data

Results flagged for a closer look

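The PHx effect differed with the time of operation in 59 genes by a test of the difference itself, the interaction contrast in edgeR at an adjusted p under 0.05. The values are the log2 fold change of PHx over sham after morning operation minus the same after night operation, given for 57 of these genes. In 57 of all 59 the morning minus night change was larger in size in sham than in PHx livers. A value is therefore not by itself a change between PHx livers. Among genes with a positive value, whose PHx response was higher after morning operation, it was 4.25 for Dbp, 2.95 for Klf10, 2.39 for Gpcpd1, 2.34 for Nrg4, 2.22 for Slc25a47, 2.13 for Ccne1, 2.08 for Gys2, 1.97 for Wee1, 1.93 for Tbc1d30, 1.83 for Abcg5, 1.76 for Abcg8, 1.69 for Tob2 and 1.69 for Ces1d. In the remaining genes of that direction it was 1.66 for Coq10b, 1.53 for Por, 1.48 for Ulk1, 1.43 for Gch1, 1.42 for Klhl21, 1.39 for Ifi27l2b, 1.37 for Socs7, 1.34 for Dhrs7, 1.29 for Bri3, 1.27 for Ak4, 1.11 for Scamp1 and 1.05 for Tnks1bp1. Among genes with a negative value, it was -3.26 for Atp8b4, -3.21 for Arntl, -2.99 for Cdkn1a, -2.88 for Tubb2a, -2.53 for Sdf2l1, -2.50 for Elovl3, -2.15 for Abtb2, -2.15 for Acmsd, -2.11 for Lgalsl, -2.08 for Rtn4rl1, -2.07 for Dtx4, -1.99 for Cldn1, -1.94 for Chka, -1.76 for St5, -1.71 for Nfil3, -1.70 for Clock and -1.66 for 4930556M19Rik. In the remaining genes of that direction it was -1.64 for Arhgef19, -1.63 for Pde9a, -1.60 for Gimd1, -1.56 for Tjp3, -1.53 for Pnkd, -1.47 for Eps8l2, -1.30 for S1pr1, -1.16 for Jpt2, -1.13 for Clpx, -1.13 for Tfrc, -1.13 for Sdr9c7, -1.05 for Mtmr4, -1.03 for Pid1, -0.93 for Kpnb1 and -0.89 for Lasp1. Atp8b4 was low in every group, averaging 1.201 CPM in morning PHx, 1.81 in morning sham, 1.905 in night PHx and 0.2889 in night sham libraries. The calls of Atp8b4 and Scamp1 were each lost in 11 of the 12 fits with a library left out. With 3 libraries a group, single libraries were not tested for distance from their group.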

How the results depend on the processing

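The count of 59 genes (25 higher, 34 lower) became 236 (107 and 129) with DESeq2, which kept all 59; 74 (18 and 56) with total counts, which kept 50 (lost were Ak4, Bri3, Klhl21, Por, Scamp1, Socs7, Tnks1bp1, Ulk1 and Wee1); and 102 (43 and 59) without replicate 3 of both sham groups, an alternative chosen after seeing the data, which kept 48 (lost were Acmsd, Arntl, Atp8b4, Clpx, Coq10b, Eps8l2, Klhl21, Kpnb1, Lasp1, Por and Socs7). With 1 library left out it was 26 to 130, with 11 to 71 higher and 12 to 63 lower. It was 59 with RLE size factors and 62 with at least 50 counts in 3 libraries. With the run of library numbers in the labels as a term it was 63. The main filter on low counts removed none of the 12056 genes, so the fit without a filter only repeated the main fit, at 59. Same-numbered libraries deviated together with correlations of -0.043 to 0.257, so the numbers were not taken to pair the mice; with the replicate block the count was 69, Atp8b4, Clpx, Coq10b, Eps8l2, Lasp1, Scamp1 and Wee1 were lost, and Igfbp1 was gained (2.21, adjusted p = 0.0378). Between morning and night PHx livers, 46 genes became 178 with DESeq2, 73 without replicate 3 of both sham groups and 17 to 140 with 1 library left out (17 and 22 without morning PHx replicates 2 and 3, and 29 and 140 without night PHx replicates 1 and 2). Between sham livers, leaving out 1 library gave 387 to 841 (387 and 462 without morning sham replicates 1 and 2, and 405 and 456 without night sham replicates 1 and 2). PHx minus sham gave 847 to 1612 after morning operation (847 without morning PHx replicate 1, 868 without morning sham replicate 2) and 2047 to 2754 after night operation. From the 6 libraries of each comparison alone, counts were 1676 for PHx minus sham after morning operation, 2148 after night operation, 39 between PHx livers and 676 between sham livers. Of 1620 values of single genes under these alternatives, 281 lost a call, 7 gained one and none changed direction among called genes. The causes of these changes were not tested. With 3 mice a group the median SE of the 59 differences was 0.29, so smaller differences were harder to detect, and 1240 genes had an unadjusted p under 0.05.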
